A study of Mus musculus with 6 samples.

Results

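The 10 genes described here are commonly used as markers of tissue-resident macrophages: Mrc1, Cd163, Lyve1, Folr2, Timd4, Retnla, Cbr2, F13a1, Vsig4 and Pf4. They were chosen by name, as the rows of the expression table that carry these symbols, and make up 10 of the 22322 genes in that table. The study addresses what CD44, a cell surface receptor for hyaluronan, does in white fat. Fat from the epididymal depot was taken from CD44 knockout mice (CD44-KO, 3 libraries) and wild type mice (3 libraries), and the mice of both genotypes had been fed a high fat diet for 17 weeks. The labels give the tissue, the genotype and the diet but not the age, the strain background or how the CD44 allele was made. They do not say that each library is a separate mouse, so p-values measure the spread between these 6 libraries.

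Macrophages that live in a tissue take up hormones, debris, apoptotic cells and serum proteins through endocytic and scavenger receptors, and in fat many of them lie along blood vessels. In obesity, further macrophages of monocyte origin gather around dying adipocytes and express lipid-handling genes such as Trem2 and Itgax, so that the resident genes become 1 of several macrophage programs in the depot. Not every gene of the list is restricted to macrophages: Lyve1 is also a marker of lymphatic endothelium, and Pf4 is a granule protein of platelets and megakaryocytes.

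Library totals lay between 15543317 and 18765009 expected counts. Cd44 stood at 28, 50 and 34 expected counts in CD44 KO replicates 1 to 3, against 3091, 10580 and 6000 in wild type replicates 1 to 3 (edgeR log2 fold change -7.27, SE 0.58, adjusted p = 0.0126). Adipocyte transcripts were abundant in all 6 libraries, with the 11 genes of a mature adipocyte list summing to 31597 to 50583 CPM, the library-scaled counts, in CD44 KO and 10840 to 29265 CPM in wild type. CD44 KO replicate 2 stood apart, because 9 epididymis genes summed to 11295 CPM there, against 13.3 and 6.6 CPM in CD44 KO replicates 1 and 3 and at most 1.5 CPM in wild type, so member values are also given without it. With all 6 libraries, edgeR called 122 genes lower and 240 higher in CD44 KO, and these counts depended on single libraries. Leaving out CD44 KO replicate 1 brought them to 1363 and 1007. The fits that dropped CD44 KO replicate 2 or 3 had 36 or 2 lower genes and 64 or 5 higher genes. With wild type replicate 1 dropped, 62 lower and 248 higher genes were called. When wild type replicate 2 was dropped, 7 lower and 2 higher genes were called, and 0 genes in the absence of wild type replicate 3, where the adjusted p of Cd44 was 0.122.

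Promoter sequence is shown for 3 genes that behaved differently in these libraries: Mrc1 and Folr2, both lower in every CD44 KO library than in any wild type library, and Retnla, whose groups overlapped. The sequences are the 250 bases before the RefSeq transcription start in GRCm38.p6, written 5′ to 3′ on the strand of the gene, and 9 of the 10 genes matched an entry of the promoter table. Capitals mark matches, on either strand, to short motifs of factors that act in macrophages. The motif of PU.1, an ETS factor of the myeloid lineage, was searched as GAGGAA and that of MAF factors, known from resident macrophages, as TGCTGA. The motif of C/EBP factors was searched as TTGCNNAA. For STAT6, which acts downstream of IL-4, the search was for the letters TTC followed after 4 bases by GAA. The windows lie at chr2:14229164-14229413 on the plus strand for Mrc1, chr7:101857191-101857440 on the minus strand for Folr2 and chr16:48842359-48842608 on the plus strand for Retnla.
Mrc1: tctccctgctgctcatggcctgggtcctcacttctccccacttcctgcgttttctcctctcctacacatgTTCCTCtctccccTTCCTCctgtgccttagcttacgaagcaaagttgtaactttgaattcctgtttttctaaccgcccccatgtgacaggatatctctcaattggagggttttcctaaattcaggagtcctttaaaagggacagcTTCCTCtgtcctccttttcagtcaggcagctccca
Folr2: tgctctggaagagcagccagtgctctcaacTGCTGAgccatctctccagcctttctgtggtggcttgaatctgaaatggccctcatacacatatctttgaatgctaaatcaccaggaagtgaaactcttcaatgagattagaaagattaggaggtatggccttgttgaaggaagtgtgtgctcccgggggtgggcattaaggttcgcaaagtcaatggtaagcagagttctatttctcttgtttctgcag
Retnla: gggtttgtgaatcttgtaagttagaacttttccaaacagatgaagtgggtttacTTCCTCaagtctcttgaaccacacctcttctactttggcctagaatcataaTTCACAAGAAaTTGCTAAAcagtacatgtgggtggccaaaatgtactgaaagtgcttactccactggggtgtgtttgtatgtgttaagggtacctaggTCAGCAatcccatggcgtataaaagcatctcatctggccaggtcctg

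The PU.1 letters occurred in 6 of the 9 promoters (Mrc1, Pf4, Cbr2, F13a1, Retnla and Vsig4), against 23.1% of all 27025 promoters of the same length. Mrc1 held 3 matches, at -180 to -175, -167 to -162 and -35 to -30 from the start. The MAF letters were found in 3 of the 9 (Folr2, Timd4 and Retnla), against 15.8% of all promoters. Retnla had the letters of all 4 motifs, with the STAT6 match at -145 to -136 lying next to the C/EBP match at -134 to -127. Retnla was the only 1 of the 9 with the STAT6 letters, which 5.86% of all promoters hold, and it shared the C/EBP letters (9.55% of all promoters) with Pf4. Of 6 further motifs searched, that of ETS factors at large (GGAAGT, which can overlap the PU.1 letters) was in 6 of the 9, against 20.0% of all promoters. The letters GGGA followed after 4 bases by CC, for NF-kB, were in 2 (17.3% of all), and TATAAA was in 1, Retnla (13%). A longer PU.1 form, AGAGGAA, was in 1, Mrc1 (8.65%). The AP-1 letters TGANTCA (6.87%) and an interferon response element read as 2 copies of GAAA with 2 bases between them (3.04%) were in 0 of the 9. These matches describe letters in a window and are not evidence of binding.

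All 10 genes passed the filter on low counts, and 9 of them had a lower mean in CD44 KO than in wild type, against 47.8% of the 13829 genes tested that had a negative log2 fold change. None of the 10 was called by the edgeR quasi-likelihood test at an adjusted p under 0.05, a threshold that 0.882% of all genes tested passed as lower and 1.74% as higher in CD44 KO. At an unadjusted p under 0.05, 3 members were lower (Mrc1, Lyve1 and Folr2), against 14.7% of all genes tested. The CD44 KO and wild type libraries did not overlap for 5 members, all lower in CD44 KO (Mrc1, Lyve1, Folr2, Vsig4 and Pf4), against 18.1% of all genes tested. The median log2 fold change of the members was -0.86, beside 0.03 over all genes tested, and it moved to -0.48 without CD44 KO replicate 2 and to -1.32 without CD44 KO replicate 1. Markers of other cell types differed between the same libraries: 6 mesothelium genes summed to 35.7 to 57.8 CPM in CD44 KO and 3.7 to 11.2 CPM in wild type. Their median log2 fold change was 2.76, with 1 called higher by edgeR. All 6 were higher at an unadjusted p under 0.05, against 16.3% of all genes tested. Of 8 fibroblast and progenitor genes, which summed to 948 to 1737 CPM in CD44 KO and 2120 to 2457 CPM in wild type, 1 was called lower and 4 were lower at an unadjusted p under 0.05, with a median of -0.80. Of 11 mature adipocyte genes, 10 had a positive log2 fold change, with a median of 1.21. Their sums were higher in every CD44 KO library than in any wild type library. edgeR called 1 of the 11 higher, and at an unadjusted p under 0.05 7 were higher and 1 lower. The part of these cell types in the member values was not tested. In bulk tissue, fewer cells of a type and less RNA per cell cannot be told apart.

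The choice of test and of libraries set which members were called. DESeq2 on the same counts called 3 of the 10 lower, namely Mrc1 (adjusted p = 0.00702), Lyve1 (0.0174) and Folr2 (0.024), and it called 9.41% of all genes with an adjusted p lower. The same 3 genes pass 0.05 in the authors' deposited table, with adjusted p of 0.00834 for Mrc1, 0.0207 for Lyve1 and 0.0285 for Folr2. That table rests on the same counts, and the submitters name DESeq2 among their tools, so it is not independent of the DESeq2 result. The share of all its genes that pass 0.05 was not computed. Without CD44 KO replicate 1, edgeR called 4 members lower, Mrc1 (log2 fold change -2.94, adjusted p = 0.0243), Lyve1 (-1.79, 0.0203), Folr2 (-3.71, 0.0379) and Vsig4 (-5.15, 0.0196), while 9.65% of all genes tested were called lower.

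**Figure D1:**
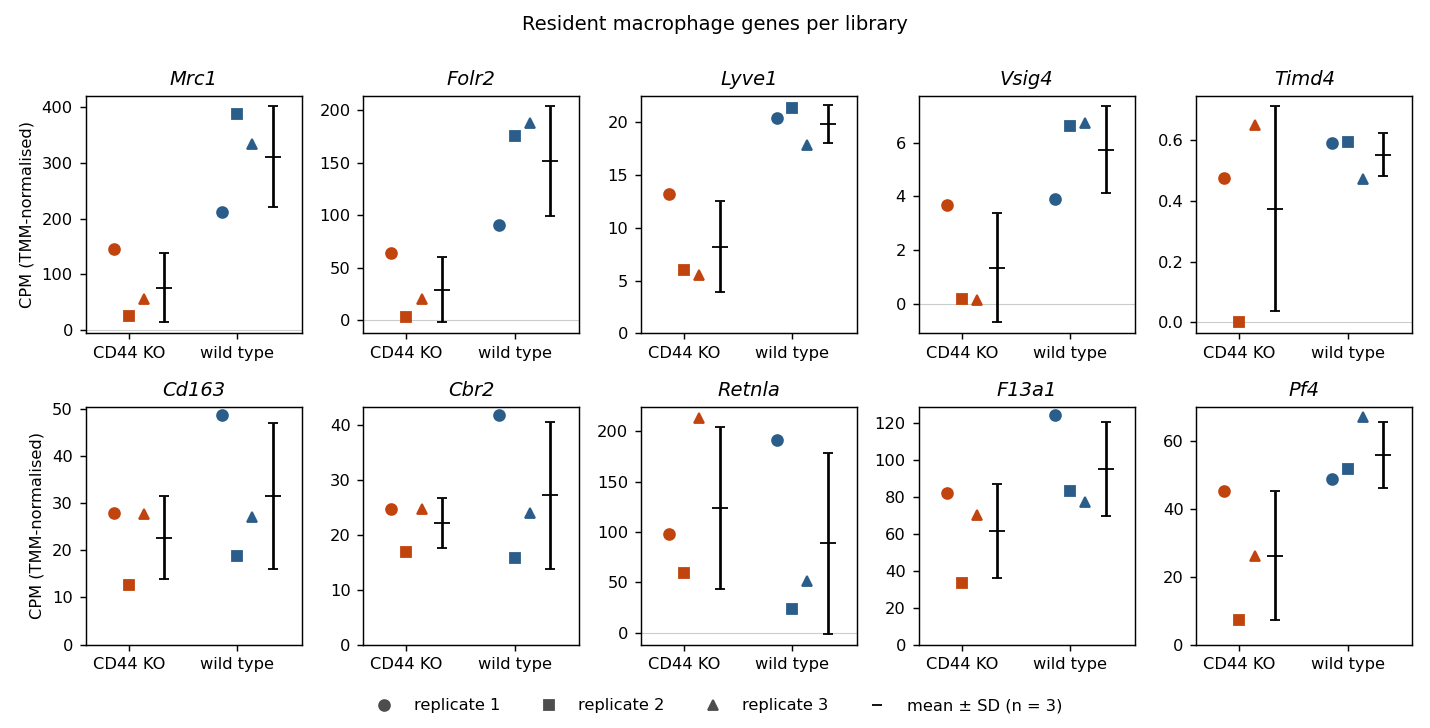
TMM-normalised CPM of the 10 genes in each library, on a linear scale, with CD44 KO replicates left of wild type replicates. Mrc1, Lyve1, Folr2, Vsig4 and Pf4 lie lower in all 3 CD44 KO libraries than in any wild type library, and the other 5 genes overlap between the genotypes.

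Among the endocytic and scavenger receptors, Mrc1 was the most abundant by CPM. Mrc1 (ENSMUSG00000026712, plus strand of chromosome 2 from 14229392 to 14332057 in GRCm38) encodes the mannose receptor CD206, a C-type lectin that internalises mannosylated glycoproteins and collagen. Its level was 145, 25.0 and 56.3 CPM in CD44 KO replicates 1 to 3, against 212, 389 and 334 CPM in wild type replicates 1 to 3. Every knockout library was below every wild type library, with CD44 KO replicate 1 the nearest to wild type. The highest FPKM was 6.26 times the lowest in CD44 KO and 1.81 times the lowest in wild type. The CD44 KO mean was 75.4 ± 62.2 CPM and the wild type mean 311 ± 90.3 CPM (SD, n = 3 each), a knockout level 0.242 times that of wild type. The log2 fold change was -2.05 (SE 0.64, 95% interval -3.60 to -0.49) with an edgeR adjusted p of 0.105.

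Folr2, the beta folate receptor, marks perivascular resident macrophages in several tissues and lies at ENSMUSG00000032725 on the minus strand of chromosome 7 from 101839988 to 101857194. It had the lowest knockout to wild type ratio of the 10 genes, with 63.7, 3.42 and 19.7 CPM in CD44 KO replicates 1 to 3, against 91.1, 175 and 188 CPM in wild type replicates 1 to 3. The groups did not overlap, although CD44 KO replicate 1 and wild type replicate 1 lay close together. The knockout mean was 0.191 times the wild type mean (29.0 ± 31.2 CPM in CD44 KO and 151 ± 52.4 CPM in wild type, SD, n = 3 each), with a log2 fold change of -2.38 (SE 0.95, interval -4.68 to -0.09, edgeR adjusted p = 0.151).

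Lyve1 encodes a hyaluronan receptor related to CD44 through its link domain (ENSMUSG00000030787, minus strand of chromosome 7 from 110850607 to 110863239). It measured 13.2, 6.01 and 5.50 CPM in CD44 KO replicates 1 to 3, against 20.4, 21.3 and 17.8 CPM in wild type replicates 1 to 3. The wild type libraries were tightly grouped, at 19.9 ± 1.81 CPM (SD, n = 3), and all lay above the knockout libraries, whose mean was 8.23 ± 4.29 CPM. On the log2 scale this was a fold change of -1.27 (SE 0.36, interval -2.14 to -0.40), and its adjusted p of 0.0911 in the edgeR test was the lowest among the 10 genes. Markers of lymphatic endothelium, the other source of Lyve1, gave 65.6, 57.4 and 35.9 CPM summed over 6 genes in CD44 KO, against 72.4, 64.3 and 59.7 CPM in wild type. Those sums overlapped between the genotypes, none of the 6 genes had an unadjusted p under 0.05, and the defining factor Prox1 was at 0.807 CPM in CD44 KO and 0.702 CPM in wild type.

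Vsig4, a complement receptor of the immunoglobulin superfamily that binds fragments of C3 on opsonised particles, lies on the minus strand of chromosome X from 96247203 to 96293438 (ENSMUSG00000044206). It was read at only 62, 3 and 2 expected counts in CD44 KO replicates 1 to 3, against 66, 123 and 129 counts in wild type replicates 1 to 3. CD44 KO replicate 1 (3.68 CPM) was thus near wild type replicate 1 (3.89 CPM), and the other knockout libraries (0.180 and 0.129 CPM) were near the level of 3 counts. The log2 fold change was -2.10 (SE 1.17, interval -4.93 to 0.73, edgeR adjusted p = 0.257), and at so few counts its size in replicates 2 and 3 is poorly determined.

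Cd163, the haemoglobin-haptoglobin scavenger receptor (ENSMUSG00000008845, plus strand of chromosome 6 from 124304656 to 124330527), did not separate the genotypes. Its level was 27.9, 12.6 and 27.6 CPM in CD44 KO replicates 1 to 3, against 48.6, 18.7 and 27.0 CPM in wild type replicates 1 to 3. The highest value was wild type replicate 1 and the lowest CD44 KO replicate 2, with the other 4 between them. The log2 fold change was -0.47 (SE 0.45, interval -1.55 to 0.61, edgeR adjusted p = 0.49), and it was 0.0013 without wild type replicate 1. Genes for haemoglobin and other red cell products were also highest in wild type replicate 1, at 3904 CPM summed over 5 genes, against 1331 to 1585 CPM in CD44 KO and 711 to 731 CPM in the other wild type libraries, and their part in the Cd163 values was not tested.

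Timd4, a phosphatidylserine receptor for apoptotic cells known from long-lived resident macrophages of mouse tissues (ENSMUSG00000055546, plus strand of chromosome 11 from 46810800 to 46844332), was near the detection limit. It had 8, 0 and 10 expected counts in CD44 KO replicates 1 to 3, against 10, 11 and 9 counts in wild type replicates 1 to 3. The count of 0 in CD44 KO replicate 2 allows up to 0.180 CPM, and the 5 other libraries lay between 0.470 and 0.647 CPM. The log2 fold change of -0.56 (SE 1.01, interval -2.98 to 1.87, edgeR adjusted p = 0.728) came to 0.03 without CD44 KO replicate 2. A difference in Timd4 was not detectable at this depth.

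Among the secreted products and enzymes, Pf4 was separated by genotype. It encodes platelet factor 4, the chemokine CXCL4 (ENSMUSG00000029373, plus strand of chromosome 5 from 90772435 to 90773383), and measured 45.3, 7.15 and 26.2 CPM in CD44 KO replicates 1 to 3, against 48.8, 51.7 and 67.1 CPM in wild type replicates 1 to 3. CD44 KO replicate 1 was just under the lowest wild type library. The mean was 26.2 ± 19.1 CPM in CD44 KO and 55.8 ± 9.82 CPM in wild type (SD, n = 3 each), with a log2 fold change of -1.09 (SE 0.60, interval -2.54 to 0.36, edgeR adjusted p = 0.251). Of 10 platelet and megakaryocyte genes, 3 passed the filter on low counts, and the sum over the 10 was higher in CD44 KO, at 7.7 to 19.9 CPM, than in wild type, at 4.3 to 6.6 CPM. Ppbp, a chemokine gene of platelet granules, was at 2.49 ± 0.512 CPM in CD44 KO and 1.78 ± 0.506 CPM in wild type (edgeR adjusted p = 0.404).

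F13a1 encodes the A subunit of coagulation factor XIII, a transglutaminase made by macrophages and megakaryocytes (ENSMUSG00000039109, minus strand of chromosome 13 from 36867178 to 37050244). Its values were 82.1, 33.2 and 70.1 CPM in CD44 KO replicates 1 to 3, against 124, 83.2 and 77.5 CPM in wild type replicates 1 to 3. CD44 KO replicate 1 lay between wild type replicates 2 and 3, so the groups overlapped. Its log2 fold change was -0.62 (SE 0.37, interval -1.51 to 0.26, edgeR adjusted p = 0.28).

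Cbr2, a carbonyl reductase (ENSMUSG00000025150, minus strand of chromosome 11 from 120729489 to 120732114), varied little in the knockout, where its highest FPKM was 1.58 times its lowest. It gave 24.8, 16.9 and 24.7 CPM in CD44 KO replicates 1 to 3, against 41.9, 15.7 and 24.0 CPM in wild type replicates 1 to 3. The knockout values fell inside the wild type range. The log2 fold change was -0.30 (SE 0.37, interval -1.20 to 0.60, edgeR adjusted p = 0.605), and it was 0.17 without wild type replicate 1.

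Retnla was the only member with a higher mean in CD44 KO, and it did not pass the test. It encodes RELM-alpha (FIZZ1), a secreted protein that IL-4 and IL-13 induce through STAT6 in mouse macrophages (ENSMUSG00000061100, plus strand of chromosome 16 from 48842551 to 48844461). The values were 98.0, 58.9 and 214 CPM in CD44 KO replicates 1 to 3, against 191, 23.6 and 51.1 CPM in wild type replicates 1 to 3. Wild type replicate 1 lay among the knockout values and the other wild type libraries were the lowest of the 6. The mean was 123 ± 80.4 CPM in CD44 KO and 88.5 ± 89.7 CPM in wild type (SD, n = 3 each), with a log2 fold change of 0.48 (SE 0.83, interval -1.52 to 2.48, edgeR adjusted p = 0.714). The sign turned to -0.18 without CD44 KO replicate 3, and the fold change grew to 1.73 (adjusted p = 0.16) without wild type replicate 1. CD44 KO replicate 3, the highest library for Retnla, was also the highest for the mature adipocyte list (50583 CPM), and wild type replicate 2 was the lowest for both (10840 CPM for the list). The sum of 9 blood endothelium genes was likewise highest in CD44 KO replicate 3 (1882 CPM) and lowest in wild type replicate 2 (750 CPM). The part of adipocyte or endothelial content in the Retnla values was not tested.

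**Figure D2:**
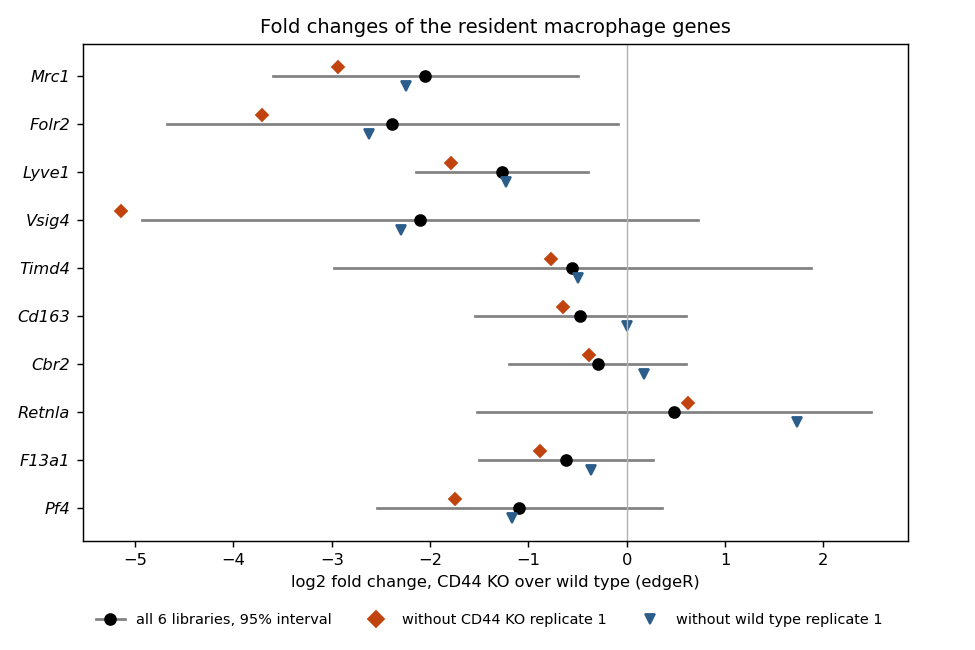
Log2 fold change, CD44 KO over wild type, of each gene with its 95% interval from the edgeR quasi-likelihood fit. The intervals of Mrc1, Lyve1 and Folr2 end below 0, those of the other 7 genes include 0, and no adjusted p is under 0.05.

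Of the 5 genes whose groups were separated, Mrc1, Folr2 and Pf4 had a similar library order, and Lyve1 and Vsig4 had CD44 KO replicate 3 lowest. For Mrc1, Folr2 and Pf4 the lowest library was CD44 KO replicate 2, followed by CD44 KO replicates 3 and 1 and then wild type replicate 1. CD44 KO replicate 2 was the lowest of all 6 libraries for 6 members, and CD44 KO replicate 1 the highest knockout library for 8. Wild type replicate 1 was the highest wild type library for Cd163, Retnla, Cbr2 and F13a1, but the lowest for Mrc1, Folr2, Vsig4 and Pf4. Without CD44 KO replicate 2, the library with epididymis transcripts, the log2 fold changes were -1.63 for Mrc1, -1.86 for Folr2, -1.09 for Lyve1, -1.58 for Vsig4 and -0.64 for Pf4. For the overlapping genes they were -0.18 for Cd163, -0.32 for F13a1, -0.14 for Cbr2, 0.82 for Retnla and 0.03 for Timd4, and edgeR called 0 of the 10.

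Per length, Retnla had the highest mean of the list in CD44 KO and Folr2 in wild type, and Timd4 the lowest in both. In FPKM, the level per transcript length and library size, Retnla averaged 204 ± 136 in CD44 KO and 150 ± 153 in wild type (SD, n = 3 each). Folr2 came behind Retnla and Pf4 in CD44 KO, at 28.5 ± 30.9 FPKM, and first in wild type, at 157 ± 55.9 FPKM. Pf4 stood at 44.6 ± 33.3 FPKM in CD44 KO and 96.5 ± 17.6 FPKM in wild type, and Mrc1 at 14.0 ± 11.9 FPKM in CD44 KO and 58.7 ± 16.7 FPKM in wild type. In both genotypes the last 4 places were held by Cd163, Lyve1, Vsig4 and Timd4. Neighbouring places often lay within the spread of the libraries: in wild type, Cd163 (7.23 ± 3.57 FPKM) and Lyve1 (6.95 ± 0.575 FPKM), or Cbr2 (25.3 ± 12.6 FPKM) and F13a1 (24.4 ± 6.61 FPKM), did not differ beyond it.

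Retnla took a changing share of the summed FPKM of the 10 genes. It made up 42.4%, 66.9% and 74.2% in CD44 KO replicates 1 to 3, against 51.1%, 9.12% and 16.6% in wild type replicates 1 to 3. Folr2 made up 16.1%, 2.18% and 4.09% in CD44 KO, against 14.7%, 41.7% and 37.7% in wild type, so that CD44 KO replicate 1 and wild type replicate 1 had close values of both shares. The summed FPKM was 391, 138 and 478 in CD44 KO, against 635, 434 and 524 in wild type, which overlapped. Retnla, the only member with a higher mean in CD44 KO, was then left out with its values known. Without Retnla the sum was 225, 45.6 and 123 in CD44 KO, against 310, 394 and 437 in wild type. These values did not overlap, a separation that rests on this choice of genes. The summed CPM of all 10 did not overlap either, at 163 to 504 in CD44 KO and 783 to 793 in wild type.

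**Figure D3:**
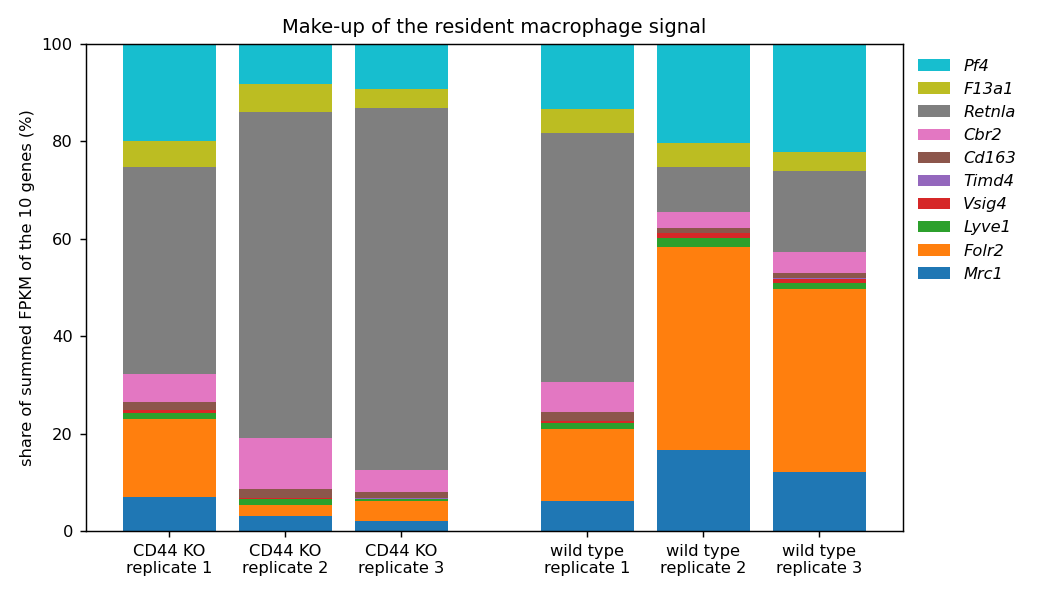
Share of the summed FPKM of the 10 genes taken by each gene, in percent, per library, with CD44 KO replicates left of wild type replicates. Retnla takes 42.4% or more in every knockout library and in wild type replicate 1, and Folr2 takes 41.7% and 37.7% in wild type replicates 2 and 3.

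The members were then set against macrophage genes at large. A list of 17 pan-macrophage genes, including Adgre1 (F4/80) and Csf1r (the CSF1 receptor), had 0 genes called by edgeR, 3 at an unadjusted p under 0.05, 5 called lower by DESeq2 and 17 with a negative log2 fold change. Its median log2 fold change was -2.13, below the members' median of -0.86. The mean log2 CPM of this list was 7.45, 3.42 and 5.26 in CD44 KO replicates 1 to 3, against 7.53, 8.51 and 8.44 in wild type replicates 1 to 3. A list of 16 lipid-associated macrophage genes, with Trem2 and Itgax, had a median of -2.42, 0 genes called by edgeR, 8 at an unadjusted p under 0.05 and 10 called lower by DESeq2. Leaving out CD44 KO replicate 1 took the pan-macrophage list to 15 of 17 called lower with a median of -3.58, and the lipid-associated list to 13 of 16 with a median of -4.35.

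Relative to the pan-macrophage mean of its own library, a difference on the log2 scale, 8 of the 10 genes stood higher in CD44 KO than in wild type, with a median difference of 1.68. The pan-macrophage mean itself averaged 5.38 in CD44 KO and 8.16 in wild type. Any gene that fell less than this reference therefore stands higher relative to it, and the share of all genes tested that do so was not computed. The groups overlapped for all 10 genes on this scale. Retnla was at -0.83, 2.46 and 2.48 in CD44 KO replicates 1 to 3, against 0.05, -3.94 and -2.76 in wild type replicates 1 to 3, a difference in means of 3.59. The means differed by 2.58 for Cbr2, 2.34 for Cd163, 2.09 for F13a1, 1.41 for Lyve1 and 1.35 for Pf4. Mrc1 kept closest to the pan-macrophage genes among the 8, at 0.51 ± 0.75 in CD44 KO and 0.08 ± 0.13 in wild type (SD, n = 3 each). Folr2 and Vsig4 were lower than the pan-macrophage mean by slightly more in CD44 KO, with a difference of -0.35 for each gene. The sign of these small differences depends on the genes chosen for comparison, since setting Adgre1 in place of the list shifts all 10 genes up by the same amount and makes all 10 positive. For Vsig4 the difference was 0.30 without CD44 KO replicate 3.

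**Figure D4:**
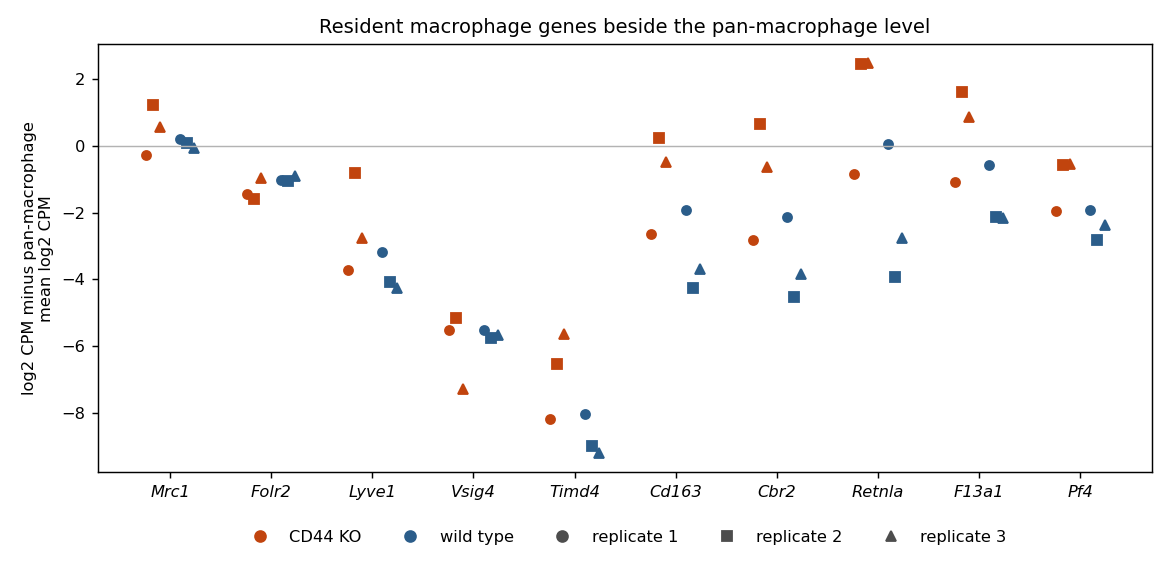
Level of each gene relative to the mean log2 CPM of 17 pan-macrophage genes in the same library, on the log2 scale, with CD44 KO left of wild type. The values of the genotypes overlap for all 10 genes, and the difference in means is highest for Retnla, at 3.59, and lowest for Folr2 and Vsig4, at -0.35.

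Other genes of resident macrophages were counted the same way. Of 22 such genes, 1 was called lower and 0 higher by edgeR, 19 had a negative log2 fold change and the median was -0.51, or -0.05 without CD44 KO replicate 2. DESeq2 called 6 of them lower, and edgeR called 7 when CD44 KO replicate 1 was dropped and 0 when any other library was. The called gene was Marco, a scavenger receptor for bacteria and particles, at 0.653 ± 0.116 CPM in CD44 KO and 3.07 ± 0.441 CPM in wild type (log2 fold change -2.22, edgeR adjusted p = 0.0438). Stab1, a scavenger receptor that clears hyaluronan and modified lipoproteins, had a log2 fold change of -1.34 (adjusted p = 0.131). Fcgrt, the neonatal Fc receptor, was the only gene of the list at an unadjusted p under 0.05 with a higher mean in CD44 KO (378 ± 92.1 CPM in CD44 KO and 249 ± 27.6 CPM in wild type, edgeR adjusted p = 0.137).

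Genes for the uptake of apoptotic cells, the process in which Timd4 acts, were counted as well. Of 13 tested, 12 had a negative log2 fold change (47.8% of all genes tested), 8 were lower at an unadjusted p under 0.05 (14.7% of all) and 1 was called by edgeR, with 6 called lower by DESeq2 and 6 when CD44 KO replicate 1 was dropped. The gene edgeR called, Mfge8, encodes a bridging protein that binds phosphatidylserine, and it fell to 400 ± 38.5 CPM in CD44 KO, against 1517 ± 272 CPM in wild type (edgeR log2 fold change -1.92, SE 0.23, adjusted p = 0.0261). The receptor tyrosine kinase gene Axl gave -1.78 (adjusted p = 0.057) and Stab2, a hyaluronan and phosphatidylserine receptor, -2.21 (adjusted p = 0.0615). This list shares Stab1, Mertk and Gas6 with the list of other resident genes.

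For haem and iron handling, in which Cd163 acts, 1 of 12 genes was called by edgeR, 8 had a negative and 4 a positive log2 fold change, and the median was -1.01. DESeq2 called 6 lower, as many as edgeR did when CD44 KO replicate 1 was dropped. Slc48a1, a haem transporter of endosomes and lysosomes, fell to 217 ± 26.6 CPM in CD44 KO, against 479 ± 3.18 CPM in wild type (log2 fold change -1.15, SE 0.17, edgeR adjusted p = 0.0337). Hp, which encodes haptoglobin, the plasma protein whose haemoglobin complex Cd163 takes up, gave -1.75 (adjusted p = 0.105), and Hmox1, haem oxygenase 1, gave -2.02 (adjusted p = 0.164). Marco, Mfge8 and Slc48a1 kept an adjusted p under 0.05 in 1, 2 and 1 of the 6 fits that leave out 1 library, and their adjusted p reached 0.236, 0.189 and 0.221.

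Retnla belongs to the response to IL-4, and other genes of that response were counted too. Of 10 tested, 6 had a negative and 4 a positive log2 fold change. The groups did not overlap for 3 lower genes (18.1% of all genes tested) and 2 higher genes (19.7% of all). The 2 higher were Socs1 (log2 fold change 1.14, edgeR adjusted p = 0.237) and Ppargc1b (0.78, adjusted p = 0.237). edgeR called 0 and DESeq2 called 3 lower, and the 3 at an unadjusted p under 0.05 were all lower in CD44 KO. They were Il13ra1, a receptor chain for IL-13 (12.3 ± 1.64 CPM in CD44 KO and 23.7 ± 3.49 CPM in wild type, edgeR adjusted p = 0.055), Chil3, a chitinase-like protein gene (log2 fold change -2.22, adjusted p = 0.07), and Tgm2, a transglutaminase gene (-0.79, adjusted p = 0.074). Arg1, which encodes arginase 1, was at 4.79 ± 3.80 CPM in CD44 KO and 9.16 ± 3.84 CPM in wild type (adjusted p = 0.412).

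**Figure D5:**
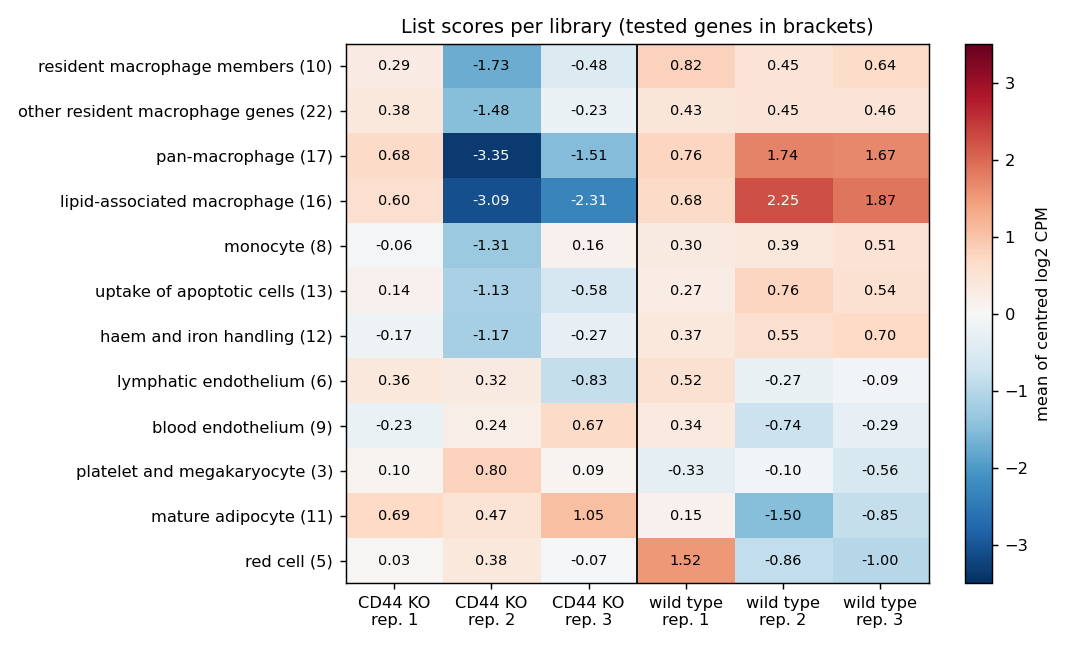
Mean of centred log2 CPM over the genes of each list, per library, with CD44 KO left of wild type. The 10 resident genes score 0.29, -1.73 and -0.48 in CD44 KO replicates 1 to 3, against 0.82, 0.45 and 0.64 in wild type replicates 1 to 3, and the pan-macrophage genes run from -3.35 to 0.68 in CD44 KO and from 0.76 to 1.74 in wild type.

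Among 16 tested relatives of the members from the same protein families, 2 were called lower by edgeR: Cd44 itself, which shares the link domain with Lyve1, and Mrc2. Mrc2 (Endo180) is the collagen-binding relative of Mrc1 and is known from fibroblasts and other mesenchymal cells. It was at 9.19 ± 4.35 CPM in CD44 KO and 136 ± 13.9 CPM in wild type (edgeR log2 fold change -3.88, SE 0.41, adjusted p = 0.0252). Of the 6 fits without 1 library, 3 called Mrc2. The resistin gene Retn, a relative of Retnla made by mouse adipocytes, was at 1003 ± 354 CPM in CD44 KO and 192 ± 170 CPM in wild type (log2 fold change 2.38, adjusted p = 0.092). It did not pass the test, and its groups did not overlap. Cbr1, a relative of Cbr2, had a log2 fold change of 0.74 (adjusted p = 0.0796).

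The genes that followed each member most closely over the 6 libraries differed between members. By Pearson's r of log2 CPM among 11071 genes, which here describes libraries that share 2 genotypes, Cd163 was most like Cltb, Cebpb and Mgl2, and F13a1 was most like Ear2. Retnla was most like Tmem88 and Apoc1, Folr2 most like Bcl2a1b, and Vsig4 most like the cell cycle genes Foxm1, Brca1 and Bub1. The 30 nearest genes had r from 0.974 to 1.000, and edgeR called 0 of them. They were picked for the highest r among 11071 genes over only 6 libraries, so high values follow from the choice. Since they follow members that edgeR did not call, the count of 0 adds nothing about the members.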

How the data were processed

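Messenger RNA of epididymal fat was measured in 6 libraries, grouped by the genotype in their labels (3 CD44 KO, 3 wild type). Per the labels, Trizol RNA was selected with oligo(dT) beads, made into libraries with a NEBNext Ultra kit and sequenced on a NovaSeq 6000. Per the submitters' processing notes, the tools were HISAT2, StringTie 1.3.1, RSEM and DESeq2, with no role stated. Build, annotation and strandedness: not given in the sources used here.

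The authors deposited a table of expected counts per gene, not scaled, in which 7.57% to 8.3% of the values of a library were not whole, and of FPKM, scaled by length and library size. A second table that the authors deposited repeats the rounded counts and adds log2 fold changes, p-values and adjusted p-values. Positions are those of GENCODE M21 (GRCm38), where 22267 of the 22322 identifiers were found. Antisense genes overlap F13a1 and Folr2 there but are not counted in the table, and without known strandedness reads from them cannot be told apart.

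The test was edgeR 4.0.16 (R 4.3.3) on expected counts rounded to whole numbers: filterByExpr, TMM scaling, robust quasi-likelihood F-test without covariates, Benjamini-Hochberg adjustment over 13829 genes, called under 0.05. "Adjusted p" without another name is this value. The CPM are TMM-normalised, SD is over 3 libraries, SE is the absolute log2 fold change over the square root of F, and intervals are 95% from the moderated degrees of freedom. Log2 CPM used a prior count of 2. The limit for a count of 0 is 3 counts in that library and covers counting error only, since reads amplified by PCR and lacking molecular identifiers do not each stand for a molecule. The pipeline was tested on simulated data with the same spread set for every gene, which does not measure its power in these libraries. Alternatives were DESeq2 1.42.0, limma 3.58.1 on log2(FPKM + 0.1) and log2(FPKM + 1), other scalings and filters, a replicate block, and leaving out each library.

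The members and the other gene lists were chosen with earlier results of these data known, as were the motifs. Genes outside the 10 were mainly named by rule: Cd44, up to 4 genes of lowest p per list, and set markers. The rule also took in the 3 genes nearest to each member by Pearson's r among genes of at least 5 mean CPM. Others, including Arg1, Ppargc1b, Hmox1, Fcgrt, Cbr1 and Epx, were chosen after their values were seen. Promoters are from RefSeq.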

Additional observations from a re-analysis of the deposited data

How the results depend on the processing

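The number of members called lower was 0 by edgeR, 3 by DESeq2 and between 0 and 4 when 1 library was left out, with 4 without CD44 KO replicate 1 and 0 without each other library. Over all genes, 122 were called lower and 240 higher. DESeq2 called 1441 lower and 1478 higher, a minimum of 10 counts in every library of a group gave 202 and 386, and no filter on low counts gave 145 higher. The fits that left out 1 library ran from 0 to 1363 lower and from 0 to 1007 higher. With the replicate block, edgeR called 0 genes in either direction and 0 members. Same-numbered libraries did not deviate together (correlations from -0.32 to -0.02). With 3 libraries per genotype, these correlations cannot decide whether the numbers pair the samples. For 4 members the sign of the log2 fold change turned when 1 library was left out: Cd163 ran from -0.74 to 0.0013, Timd4 from -1.19 to 0.025, Retnla from -0.18 to 1.73 and Cbr2 from -0.58 to 0.17. For Mrc1, Lyve1, Folr2, F13a1, Vsig4 and Pf4 it stayed negative under all 15 alternatives. The cause of these changes was not tested. Upper-quartile scaling moved the median of all genes to 0.10 from 0.03. The 3 libraries per genotype, the 0 to 11 counts of Timd4 and the 2 and 3 counts of Vsig4 in CD44 KO replicates 3 and 2 limit the precision.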

Other observations

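Genes of cells and signals known to act on resident macrophages were read in the same libraries. Il34, which encodes a ligand of the CSF1 receptor, was at 23.6 ± 4.49 CPM in CD44 KO and 13.1 ± 1.81 CPM in wild type (SD, n = 3 each, log2 fold change 0.85, edgeR adjusted p = 0.0691), with no overlap between the groups. Csf1, the other ligand, was at 43.5 ± 19.0 CPM in CD44 KO and 48.5 ± 4.55 CPM in wild type (adjusted p = 0.757). Il34 was the only 1 of 5 tested macrophage growth factor genes with a positive log2 fold change. The other 4 were negative, the median of the 5 was -1.32, and edgeR called 0. The 6 listed growth factor genes summed to 93.5 to 197 CPM in CD44 KO and 202 to 331 CPM in wild type. Of 6 tested eosinophil and mast cell genes, 5 had a negative log2 fold change and edgeR called 0, with 2 at an unadjusted p under 0.05 and 3 called lower by DESeq2. These 2 were Ccr3, the eotaxin receptor (0.178 CPM in CD44 KO and 4.73 CPM in wild type, adjusted p = 0.0998), and Siglecf, a sialic acid receptor of eosinophils that some macrophages also carry (0.167 CPM in CD44 KO and 1.32 CPM in wild type, adjusted p = 0.0996), while Epx, the defining eosinophil peroxidase gene, was at 0.0216 CPM in CD44 KO and 0 in wild type.

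Of 8 monocyte genes, edgeR called 0, 3 had an unadjusted p under 0.05, all lower in CD44 KO, and DESeq2 called 2 lower. Their summed level was 51.5 to 96.5 CPM in CD44 KO and 138 to 147 CPM in wild type. Of 9 blood endothelium genes, all 9 had a positive log2 fold change, with a median of 0.38, and 0 had an unadjusted p under 0.05 or were called by edgeR or DESeq2.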
